A study of Rattus norvegicus with 21 samples.

Results

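The right liver lobe of rats carrying a bile duct tumour was compared between 3 rats killed 25 days and 3 other rats killed 15 days after inoculation. The members were the 6 array samples labelled as normal right liver lobe of those days, of 21 arrays in the series. All animals were male young adult Fischer 344 rats, and every rat, including those of the earlier days, had been inoculated with BDEneu cells, rat cholangiocytes transformed with an activated neu (Erbb2) oncogene. Rats 7, 8 and 9 gave the day 25 livers and rats 4, 5 and 6 the day 15 livers; rats 1, 2 and 3 gave 3 day 10 livers, which are shown as the earlier time point and entered the estimate of the spread between rats. Tumours of the same 9 rats were used for one comparison. Livers of rats without tumours were not analysed here, so time with a tumour and time alone cannot be told apart. The labels call the lobe normal and do not name the lobe that held the tumour. Title and source name put the later livers at day 25, whereas their description gives day 55; day 25 was used.

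The hepatocyte makes most plasma proteins, turns surplus sugar into fatty acids and sterols, and clears drugs and bile acids. In an acute phase response, cytokines of the interleukin-6 type switch on genes for plasma proteins such as alpha-2-macroglobulin and dampen others. Lipid synthesis is driven by the transcription factors SREBP-1c (gene Srebf1) and ChREBP (Mlxipl) under insulin and carbohydrate, and by SREBP-2 (Srebf2) when cholesterol is short. In the rat, male-type liver genes such as Cyp2c11 follow the pulses in which males release growth hormone.

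All values below are log2 expression levels or differences of them, and SE is the standard error of a difference. Levels near 14 lie at the top of the array's range, and levels under the array medians, which were 5.98 to 6.02 in the 9 livers, may be background, since no detection calls came with the values. The tissue label was borne out by its markers: the 14 hepatocyte genes averaged 12.83, 12.58 and 12.46 in rats 7, 8 and 9, against 12.55, 12.88 and 12.75 in rats 4, 5 and 6. Erbb2, the oncogene of the tumour cells, lay at 5.69, 5.23 and 4.98 at day 25 and at 5.16, 5.57 and 5.11 at day 15. The first principal component of the 9 livers held 50.5% of the variance and placed rat 7 apart at 60.6, with rats 8 and 9 at 23.9 and 6.8. Among day 15 livers, rat 5 (-20.8) lay with the day 10 livers (-25 to -20.8), and rats 4 and 6 lay at -3.3 and 1.8.

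At day 25, 120 of 14218 genes differed from day 15 (0.844%; limma across all genes, Benjamini-Hochberg adjusted p under 0.05), of which 46 were higher (0.324%) and 74 lower (0.52%). Of these, 64 changed at least 2-fold (0.45%), 23 upward and 41 downward. The median difference over all genes was -0.01. Genes whose 3 and 3 arrays did not overlap numbered 2543 (17.9%), 1051 higher (7.39%) and 1492 lower (10.5%), and all 120 called genes were among them. The largest rises were led by the acute phase gene A2m and the decoy receptor Il1r2, and the largest falls by genes of fat synthesis and fat handling. The count depended on single livers: it was 163, 15 and 200 without rat 7, 8 or 9 and 11, 51 and 25 without rat 4, 5 or 6. Of the 38 called genes chosen for naming, A2m, Il1r2, Me1, Cux2 and Cyp3a18 were called whichever liver was left out. The others each lost their call in at least 1 of these runs. The direction of the 38 could not change, because leaving out 1 liver cannot reverse groups that do not overlap.

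**Figure D1:**
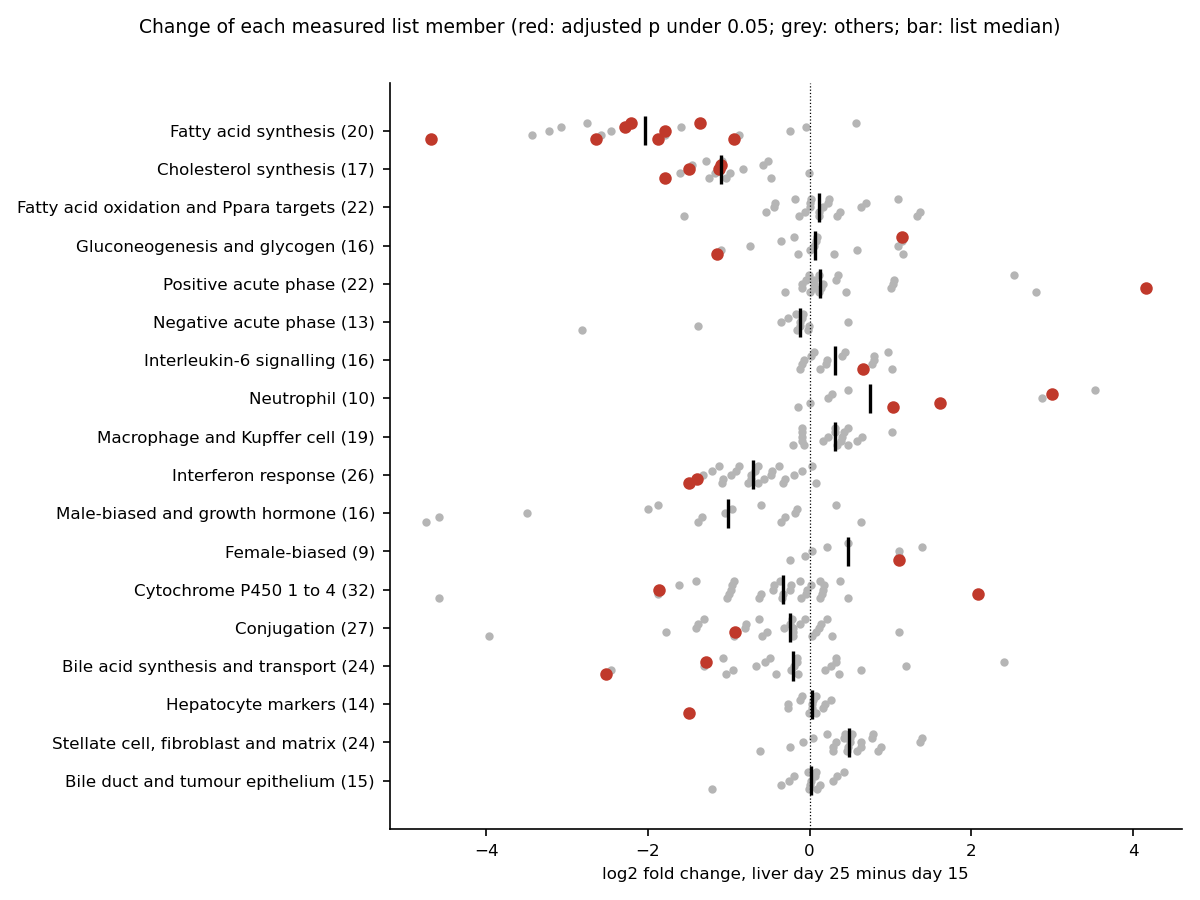
Log2 fold change (liver day 25 minus day 15, horizontal axis) of each measured member of 18 gene lists, with the number of measured members in brackets; red points passed the adjusted p threshold, grey points did not, and the bar is the list median. The fatty acid and cholesterol synthesis members lie almost wholly below 0, with medians of -2.04 and -1.10, whereas the hepatocyte marker median is 0.03.

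Of 20 measured genes of fatty acid and triglyceride synthesis, 8 fell at day 25 and none rose, against 0.52% of all genes called lower. The list median was -2.04, against -0.01 over all genes. In 17 members the 3 livers of day 25 all lay below the 3 of day 15, against 10.5% of all genes. The mean level of the list was 7.93, 8.62 and 9.27 in rats 7, 8 and 9, against 10.54, 10.84 and 10.33 in rats 4, 5 and 6; at day 10 it was 10.72, 10.79 and 10.92. All 3 day 25 livers were therefore below every earlier liver. With each liver left out in turn, the number of members called was 10, 2 and 15 without rat 7, 8 or 9 and 1, 5 and 5 without rat 4, 5 or 6, and the median stayed between -2.22 and -1.74.

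The promoters of 2 of these genes and of 2 sterol genes described further on are shown as examples that hold the letters marked in them. They are RefSeq sequences on GRCr8, 5′ to 3′ on the gene's strand, from 250 bases before to 50 bases after the annotated start: Pnpla3 at chr7:117173278-117173577 on the plus strand, Acly at chr10:85963582-85963881, Fdps at chr2:176804767-176805066 and Sc5d at chr8:51538228-51538527, these 3 on the minus strand. Capitals mark CCAAT or, for the other strand, ATTGG, the letters bound by the factor NF-Y, which were searched for after the values had been seen.
Pnpla3: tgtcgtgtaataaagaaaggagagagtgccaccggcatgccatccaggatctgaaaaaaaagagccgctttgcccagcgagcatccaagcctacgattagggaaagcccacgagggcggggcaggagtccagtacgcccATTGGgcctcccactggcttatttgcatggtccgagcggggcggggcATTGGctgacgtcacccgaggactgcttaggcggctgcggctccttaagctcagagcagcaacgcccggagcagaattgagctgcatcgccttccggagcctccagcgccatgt
Acly: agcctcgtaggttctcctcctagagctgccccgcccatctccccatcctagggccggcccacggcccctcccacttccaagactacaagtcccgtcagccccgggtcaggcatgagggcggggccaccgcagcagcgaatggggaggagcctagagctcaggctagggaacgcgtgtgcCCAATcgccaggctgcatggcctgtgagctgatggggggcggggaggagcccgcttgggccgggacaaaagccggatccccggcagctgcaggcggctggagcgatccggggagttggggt
Fdps: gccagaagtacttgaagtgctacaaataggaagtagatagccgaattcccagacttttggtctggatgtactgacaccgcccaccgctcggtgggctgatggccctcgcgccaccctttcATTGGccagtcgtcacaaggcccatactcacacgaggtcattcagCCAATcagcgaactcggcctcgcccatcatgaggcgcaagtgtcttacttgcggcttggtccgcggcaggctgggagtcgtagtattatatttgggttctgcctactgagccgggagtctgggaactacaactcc
Sc5d: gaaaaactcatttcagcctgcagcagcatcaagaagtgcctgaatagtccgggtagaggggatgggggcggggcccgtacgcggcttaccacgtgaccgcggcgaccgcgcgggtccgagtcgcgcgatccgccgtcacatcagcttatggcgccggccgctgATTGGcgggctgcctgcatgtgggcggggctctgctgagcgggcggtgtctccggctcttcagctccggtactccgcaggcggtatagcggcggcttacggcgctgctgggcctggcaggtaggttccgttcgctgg
The letters occurred on either strand in 11 of the 15 fatty acid synthesis promoters in the table (73.3%) and in 11 of 13 cholesterol synthesis promoters (84.6%), against 37.3% of 11734 promoters of measured genes. A match is a description of the sequence and not a site shown to be used. Of the list genes described further on, Me1 fell but had no match, whereas Lpin1 and Srebf2 overlapped between the days and had a match. Whether matches go with the falls was not tested.

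Pnpla3, a lipid droplet acyl hydrolase whose gene responds to insulin and carbohydrate in the mouse, had levels of 7.04, 6.17 and 5.93 in rats 7, 8 and 9, against 10.78, 12.54 and 9.85 in rats 4, 5 and 6. It fell by 4.68 (SE 0.58, adjusted p = 0.0174), the largest fall among called genes, and the day 10 livers lay at 10.97 to 11.18. Acly, ATP citrate lyase, which makes the acetyl-CoA for fat synthesis outside mitochondria, lay at 8.66, 9.28 and 9.63 at day 25, against 11.59, 12.52 and 11.36 at day 15, and fell by 2.64 (SE 0.31, adjusted p = 0.0149). Both genes showed a gap of more than 1 between the lowest day 15 liver and the highest day 25 liver. Me1, malic enzyme, a source of NADPH for fat synthesis, was at 7.62, 7.60 and 7.94, against 9.74, 10.24 and 9.82, a fall of 2.21 (SE 0.22, adjusted p = 0.00863). Me1 and A2m were also the 2 genes called when the spread was taken from the 6 livers of days 25 and 15 alone.

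Elovl6, which lengthens palmitate to stearate, was at 5.64, 7.17 and 7.14 at day 25, against 9.20, 9.08 and 8.50 at day 15 (fell by 2.28, SE 0.39). Acss2, which makes acetyl-CoA from acetate, was at 8.22, 7.88 and 8.79, against 10.33, 10.15 and 10.00 (fell by 1.87, SE 0.22). Acacb, the mitochondrial acetyl-CoA carboxylase whose product restrains fatty acid entry into mitochondria, was at 5.10, 5.40 and 5.28, against 7.29, 6.50 and 7.38 (fell by 1.79, SE 0.23). As in all 120 called genes, the groups did not overlap in these, and the day 25 levels of Acacb were under the array medians. Gpam, the first enzyme of glycerolipid assembly, fell by 1.36 (SE 0.20), and Mlxipl, the carbohydrate-responsive factor ChREBP, fell by 0.94 (SE 0.14) to 7.53, 7.69 and 7.87, against 8.64, 8.81 and 8.46 at day 15.

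Several members had larger differences but a wider spread and did not pass the test. Scd, stearoyl-CoA desaturase, had 8.43, 9.95 and 12.21 in rats 7, 8 and 9, against 13.34, 13.56 and 13.34 in rats 4, 5 and 6 (-3.22, SE 0.74, adjusted p = 0.0941). Fasn, fatty acid synthase, had 7.82, 9.70 and 10.49, against 12.03, 12.33 and 11.90 (-2.75, SE 0.54, adjusted p = 0.0677). The other probe set of Fasn was called by limma, with -3.31 (SE 0.55, adjusted p = 0.0389 over all probe sets). Rat 7 was lowest and rat 9 highest in both, and the same order held in the desaturases Fads2 (5.90, 7.90 and 9.89, against 11.64, 11.14 and 11.21) and Fads1 (7.59, 9.90 and 11.31, against 12.86, 12.79 and 12.40). Srebf1, the factor of fat synthesis itself, differed by -1.79 (SE 0.38, adjusted p = 0.0771), with 8.23, 9.02 and 9.33 against 10.42, 11.52 and 10.02. The acyltransferases of the last step of triglyceride synthesis, Dgat1 (-0.04, SE 0.15) and Dgat2 (-0.24, SE 0.18), overlapped between the days, as did Lpin1 (0.57, SE 0.80), which was high in rat 7 alone (12.15, with 8.60 and 9.16 in rats 8 and 9, against 8.90 to 9.69 at day 15).

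Of 17 measured cholesterol synthesis genes 4 fell and none rose, against 0.52% of all genes called lower, and the median was -1.10. In 13 members every day 25 liver lay below every day 15 liver, against 10.5% of all genes. The list averaged 8.75, 8.82 and 9.17 in rats 7, 8 and 9, against 10.14, 9.78 and 9.95 in rats 4, 5 and 6, with day 10 between them at 9.40 to 9.56. Fdft1, squalene synthase, the first committed step to sterols, had 8.31, 9.08 and 9.40, against 11.12, 10.32 and 10.72, and fell by 1.79 (SE 0.28, adjusted p = 0.032). Fdps, farnesyl diphosphate synthase, had 10.06, 10.42 and 11.07, against 12.11, 11.98 and 11.94, and fell by 1.49 (SE 0.22, adjusted p = 0.0249). Sc5d, a late sterol desaturase, fell by 1.12 (SE 0.14), and Pmvk, phosphomevalonate kinase, by 1.10 (SE 0.19). The day 15 livers were the highest of the 3 days in these genes, by 0.23 to 0.57 over the day 10 means. Without rat 4, 6 or 8 no member was called, and without rat 5, 7 and 9 the number was 2, 8 and 5, with the median between -1.21 and -0.98.

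Srebf2 itself, the sterol-responsive factor, overlapped between the days, with 8.68, 8.80 and 9.05 at day 25, against 8.97, 8.81 and 8.77 at day 15 (-0.01, SE 0.11). Insig1, which holds the SREBP factors in the endoplasmic reticulum, was at 9.90 and 10.17 in rats 8 and 9 but at 12.37 in rat 7, against 12.26, 12.14 and 12.41 at day 15. Scap, the escort of the SREBP factors, was not on the list and was picked after its values were seen: it had 8.19, 8.25 and 8.27, against 8.79, 8.68 and 8.76, and fell by 0.51 (SE 0.08, adjusted p = 0.0377), although its other probe set differed by -0.25 (SE 0.21). Further called genes of nearby steps, also picked from their values, were Tm7sf2, a sterol reductase (fell by 1.13, SE 0.18), Lpcat3, a phospholipid acyltransferase (fell by 0.94, SE 0.13), and Tkt, transketolase of the pentose phosphate path (fell by 1.10, SE 0.13). Day 15 was the highest of the 3 days in Scap and Tm7sf2. Against day 10, the day 25 livers differed by -0.14 in Scap, -0.17 in Tm7sf2, -0.67 in Lpcat3 and -1.39 in Tkt.

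**Figure D2:**
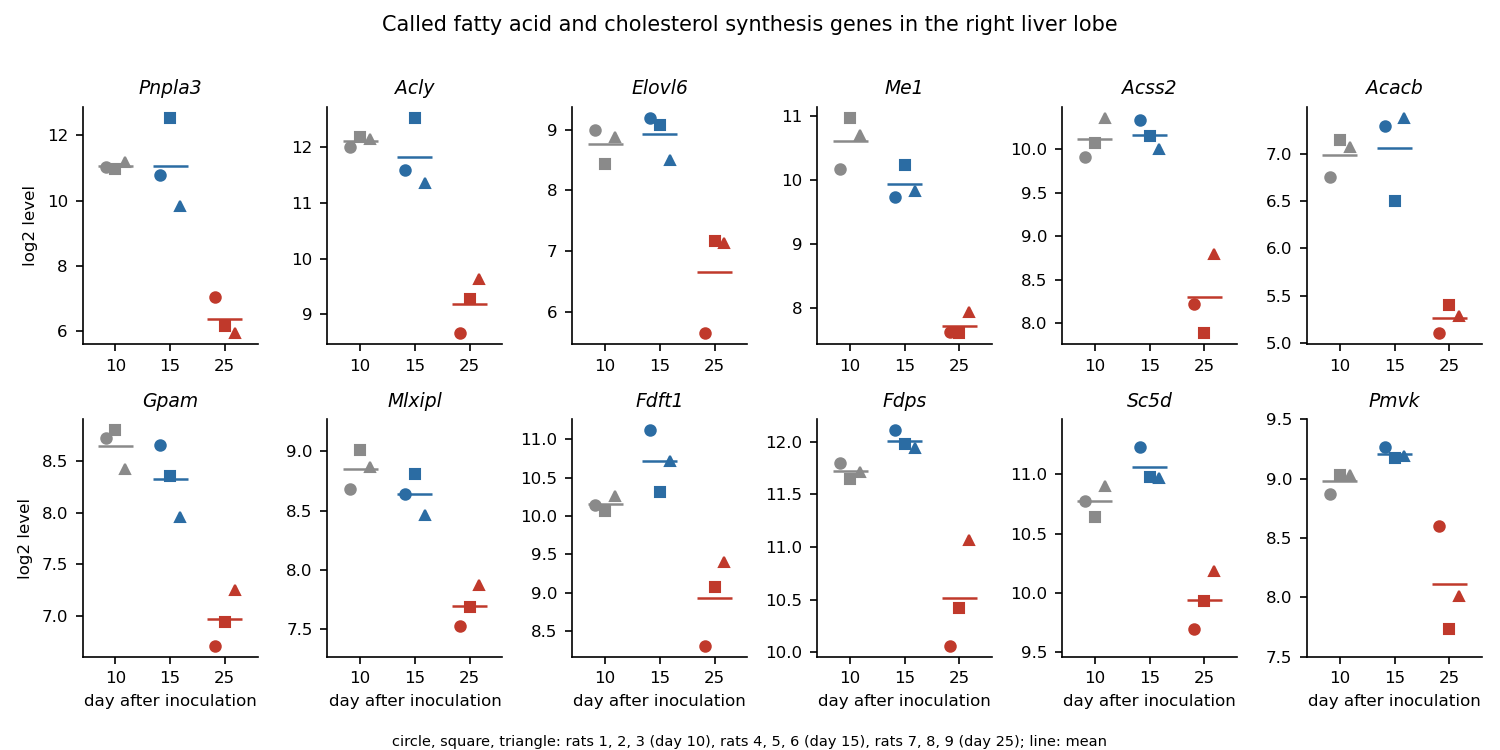
Log2 levels of the 8 called fatty acid synthesis and 4 called cholesterol synthesis genes (vertical axes, each on its own scale) in the 3 livers of days 10, 15 and 25; each point is 1 rat and the line is the mean. In every panel the 3 day 25 livers lie below the 3 day 15 livers, as in Acly with 8.66 to 9.63 against 11.36 to 12.52.

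None of 22 measured fatty acid oxidation and Ppara target genes passed the test, with a median of 0.11. Cpt1a, which brings fatty acids into mitochondria, had 10.00, 11.24 and 11.40 at day 25, against 9.14, 10.35 and 9.18 at day 15 (1.33, SE 0.41, adjusted p = 0.189), and Acaa2, the thiolase of the last step, had -0.44 (SE 0.26). Among 16 gluconeogenesis and glycogen genes 1 rose and 1 fell, against 0.844% of all genes called in either direction (median 0.07). Gys2, the liver glycogen synthase, had 10.04, 9.29 and 9.66, against 8.35, 8.71 and 8.51, and rose by 1.14 (SE 0.18, adjusted p = 0.0321), while Gbe1, the glycogen branching enzyme, had 10.91, 10.82 and 11.26, against 12.10, 12.39 and 11.94, and fell by 1.15 (SE 0.15, adjusted p = 0.0174). Pck1, the entry enzyme of gluconeogenesis, had a difference of 0.09 (SE 0.16). Igfbp1, an insulin-repressed binding protein, stood at 13.79 in rat 7 and at 10.35 and 10.34 in rats 8 and 9, against 9.52, 10.31 and 11.38 at day 15.

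Alpha-2-macroglobulin was the largest rise. A2m, a protease inhibitor of plasma and a classical acute phase protein of the rat, had levels of 12.80, 13.34 and 13.24 in rats 7, 8 and 9, against 9.18, 8.66 and 9.06 in rats 4, 5 and 6, and rose by 4.16 (SE 0.38, adjusted p = 0.00863). The day 10 livers had 8.31, 8.46 and 6.85, so the 6 earlier livers were all at least 3 below the lowest day 25 liver. A2m was the 1 member called among 22 positive acute phase genes, against 0.324% of all genes called higher, and their median was 0.13. Several of these genes, among them Hp (haptoglobin), Fgg (a fibrinogen chain), C3 and Orm1, were already near the top of the scale at both days: Fgg had 14.17, 14.23 and 14.25, against 14.22, 14.06 and 14.19, and C3 had 14.13, 14.28 and 14.28, against 14.34, 14.29 and 14.33. Differences there are compressed, so these values cannot tell a steady level from a change.

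Below the top of the scale, several acute phase genes differed among the day 15 livers. Lcn2, the iron-trapping lipocalin 2, had 9.26, 10.80 and 10.68 at day 25, against 8.13, 5.02 and 9.99 in rats 4, 5 and 6 (2.53, SE 1.03, adjusted p = 0.305). Lbp, the lipopolysaccharide binding protein, had 13.39, 13.55 and 13.42, against 13.08, 11.03 and 13.22 (1.01, SE 0.50, adjusted p = 0.393). Rat 5 was low in both, at the level of the day 10 livers (Lcn2 5.10 to 5.52 and Lbp 11.23 to 11.88). Mt2A, a metal-binding metallothionein, had 13.71, 12.03 and 12.44, against 9.12, 9.07 and 11.58 (2.80, SE 0.70, adjusted p = 0.113). Hamp, the iron hormone hepcidin, had 12.72, 10.82 and 11.45, against 10.63, 10.72 and 12.29 (0.45, SE 0.60).

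Of 16 interleukin-6 and related signalling genes 1 rose and none fell, against 0.324% of all genes called higher, with a median of 0.31. Tnfrsf1a, the main receptor of tumour necrosis factor, had 10.89, 10.77 and 10.96 at day 25, against 10.14, 10.22 and 10.28 at day 15, and rose by 0.66 (SE 0.11, adjusted p = 0.0391), a call lost whichever liver was left out. Stat3, the factor that carries the interleukin-6 signal to A2m and other acute phase genes, had 11.56, 11.09 and 11.23, against 10.54, 10.28 and 10.67 (0.79, SE 0.16, adjusted p = 0.0749). Il1r1, the signalling receptor of interleukin-1, had 11.47, 11.63 and 11.97, against 10.50, 10.29 and 11.23 (1.02, SE 0.29, adjusted p = 0.15). In both genes every day 25 liver lay above every day 15 liver, as in 7.39% of all genes. Cebpb, a factor of the acute phase response, had 11.75, 10.86 and 10.82, against 10.56, 11.06 and 11.61 (0.06, SE 0.32). The interleukin-6 transcript stayed between 4.40 and 4.50 at day 25 and between 4.11 and 4.37 at day 15, under the array medians. Of 13 negative acute phase genes, which acute inflammation lowers, none passed the test (median -0.12); Alb, albumin, was at 14.40 to 14.51, against 14.56 to 14.62.

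The letters TTCNNNGAA, to which STAT factors bind, occurred in 7 of 19 positive acute phase promoters in the table (36.8%), against 6.99% of promoters of measured genes, on RefSeq GRCr8 windows of 300 bases. They read the same on both strands. The 7 matches were in Hamp, Fga, Fgb, Itih4, Serpina3n, Kng2l1 and Steap4, none of which was called, and A2m was not among the promoters searched. The letters occurred in none of the 10 promoters found for the 12 largest rises and in none of the 15 fatty acid and 13 cholesterol synthesis promoters.

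Of 10 measured neutrophil genes 3 rose at day 25 and none fell, against 0.324% of all genes called higher, and the list median was 0.75. The list averaged 7.47, 7.62 and 7.09 in rats 7, 8 and 9, against 6.10, 5.72 and 6.51 in rats 4, 5 and 6. In a piece of whole liver, more cells of a type and more RNA per cell cannot be told apart. Il1r2, the decoy receptor for interleukin-1, had 8.71, 9.09 and 8.44, against 5.67, 5.37 and 6.19, and rose by 3.00 (SE 0.22, adjusted p = 0.00391). Csf3r, the receptor of granulocyte colony-stimulating factor, had 6.74, 7.21 and 6.75, against 5.25, 4.83 and 5.78, and rose by 1.61 (SE 0.30), a call lost without any 1 of the livers. Mmp8, neutrophil collagenase, had 5.66, 5.89 and 5.24, against 4.40, 4.61 and 4.68, and rose by 1.03 (SE 0.17, adjusted p = 0.0363), all under the array medians.

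The calprotectin subunits had large but variable differences. S100a8 had 11.67, 11.55 and 10.70, against 7.90, 6.13 and 9.31 (3.53, SE 0.86, adjusted p = 0.106), and S100a9 had 12.29, 12.23 and 11.39, against 9.16, 7.99 and 10.16 (2.87, SE 0.57, adjusted p = 0.0677). Every day 25 liver lay above every day 15 liver, and rat 5 was again the lowest of its day. Il1b (-0.15, SE 0.21) and the granule gene Camp (0.01, SE 0.13) overlapped between the days. Without rat 4, 5, 6 or 8 only Il1r2 was called, without rat 7 the number was 2 and without rat 9 it was 3.

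**Figure D3:**
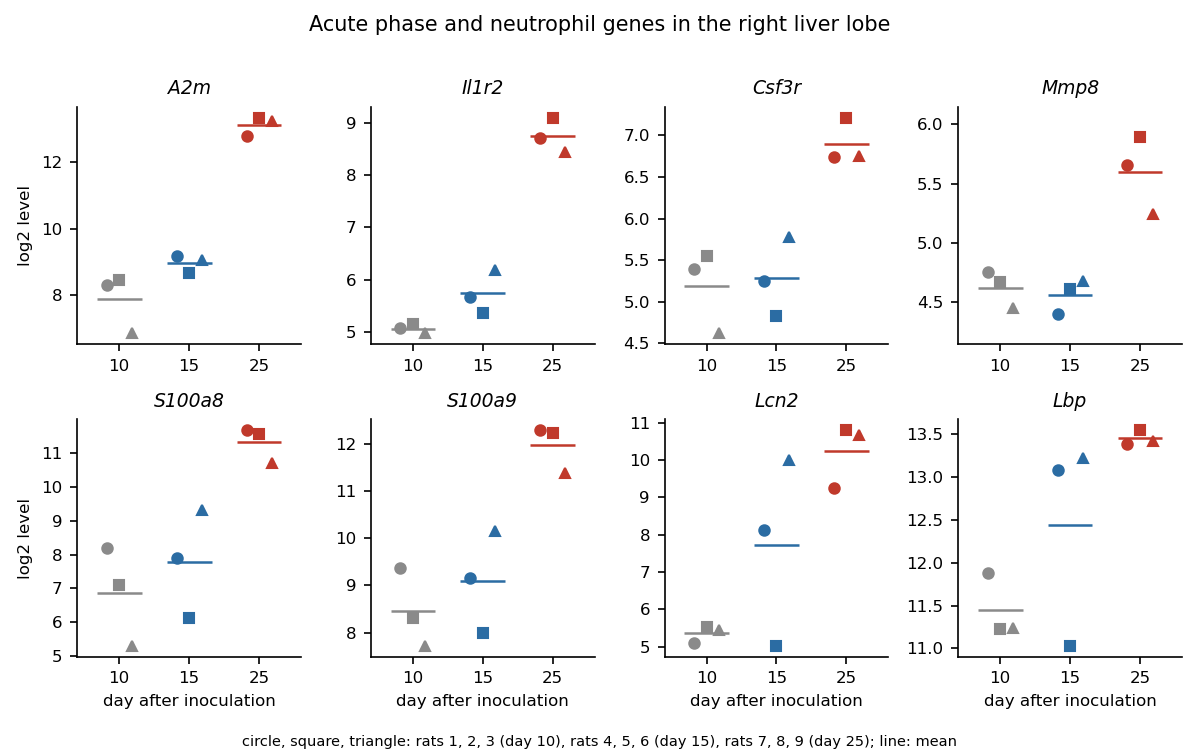
Log2 levels of acute phase and neutrophil genes (vertical axes, each on its own scale) in the 3 livers of days 10, 15 and 25; each point is 1 rat and the line is the mean. A2m and Il1r2 are high in the 3 day 25 livers alone, whereas Lcn2 and Lbp are also high in rats 4 and 6 at day 15 and low in rat 5.

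Of 26 measured interferon response genes 2 fell and none rose, against 0.52% of all genes called lower; 24 had differences below 0 and the median was -0.70. In 15 members every day 25 liver lay below every day 15 liver, against 10.5% of all genes. The list averaged 7.09, 7.42 and 7.75 in rats 7, 8 and 9, against 8.09, 8.10 and 8.16 in rats 4, 5 and 6. Cxcl9, a chemokine induced by interferon gamma that draws T cells, had 6.84, 6.80 and 6.57, against 8.45, 8.11 and 7.83, and fell by 1.39 (SE 0.20, adjusted p = 0.0232); its other probe set fell by 1.98 (SE 0.19). Mx2, an antiviral GTPase, had 6.22, 6.51 and 6.79, against 7.97, 7.91 and 8.12, and fell by 1.49 (SE 0.26, adjusted p = 0.0445), but its other, dim probe set differed by 0.03. Ifi27, the member with the highest mean, had 11.99, 11.99 and 12.34, against 12.54, 12.58 and 12.62 (-0.47, SE 0.12, adjusted p = 0.117). Without rat 4 or 8 no member was called, without rat 5 or 6 the number was 1, without rat 7 it was 2, and without rat 9 it was 6. None of 8 MHC class II genes passed the test (median -0.51), nor did any of 20 T and NK cell genes (median -0.11) or 8 B and plasma cell genes (median -0.07).

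Markers of the other cell types that a piece of liver could hold gave no call, and their part in the gene groups above was not tested. The 19 macrophage and Kupffer cell genes had a median of 0.31, with 13 above 0 and 6 below, the highest Cd163 (1.02). They averaged 9.48, 9.19 and 9.02 in rats 7, 8 and 9, against 8.83, 8.91 and 9.13 in rats 4, 5 and 6. C1qa, the member with the highest mean, had 11.74, 11.30 and 11.02, against 10.87, 10.77 and 11.22 (0.40, SE 0.20, adjusted p = 0.393). Clec4f, the Kupffer cell lectin, was at 10.33 to 10.61 against 10.35 to 10.76. The 24 stellate cell, fibroblast and matrix genes had a median of 0.49, 21 of them above 0, and averaged 8.99, 9.04 and 8.34, against 8.50, 8.24 and 8.19. In 8 of these genes every day 25 liver lay above every day 15 liver, against 7.39% of all genes. The 15 bile duct and tumour epithelium genes had a median of 0.02, but averaged 6.87 in rat 7, against 5.88 and 5.66 in rats 8 and 9 and 6.09, 6.15 and 6.30 at day 15. Krt19, a bile duct keratin, had 7.77, 5.87 and 4.98, against 5.73, 6.46 and 6.42 (0.00, SE 0.59), and Epcam had 9.07, 7.23 and 6.51, against 7.81, 7.25 and 8.30. Msln, a mesothelial surface protein, was at 9.32 in rat 7 and at 6.36 and 6.20 in rats 8 and 9, against 6.24, 6.23 and 7.57. The 6 adipocyte genes all had differences above 0 (median 0.12) and averaged 7.25, 7.00 and 6.76 in rats 7, 8 and 9, against 6.51, 6.33 and 6.58 in rats 4, 5 and 6. Fabp4, a fatty acid binding protein of fat cells and macrophages, had 9.94, 8.30 and 6.66, against 7.05, 5.92 and 6.34 (1.86, SE 0.68, adjusted p = 0.259), whereas the fat cell markers Adipoq and Plin1 stayed under the array medians in all 6 livers. Without rat 9, 1 adipocyte gene was called. Pancreatic acinar genes averaged 5.01 to 5.09, against 5.06 to 5.14, and muscle genes 4.94 to 4.99, against 4.92 to 5.04.

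Of 9 red cell genes 8 had differences above 0 and none was called (median 0.16). In 5 of the 9 every day 25 liver lay above every day 15 liver, against 7.39% of all genes. Hbb, beta globin, had 12.35, 11.99 and 11.79, against 11.10, 11.58 and 10.68 (0.92, SE 0.22, adjusted p = 0.103), and the day 10 livers had 11.98 to 12.14. The 10 endothelial genes had a median of 0.21, and in 4 of them every day 25 liver lay above every day 15 liver. Lyve1, a hyaluronan receptor of liver sinusoids, had 11.42, 10.92 and 10.93, against 10.28, 10.53 and 10.55 (0.64, SE 0.15, adjusted p = 0.0966).

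None of 16 measured male-biased and growth hormone genes passed the test; the list median was -1.01, and the day 25 livers differed among themselves. Cyp2c11, the main male-specific P450 of rat liver, had 5.93, 6.76 and 11.13 in rats 7, 8 and 9, against 12.52, 13.45 and 11.61 in rats 4, 5 and 6 (-4.59, SE 1.14, adjusted p = 0.11). Obp3, an alpha-2u-globulin, had 6.07, 5.23 and 10.89, against 11.56, 13.34 and 11.56 (-4.75, SE 1.25, adjusted p = 0.126), and Mup5, of the same lipocalin family, had 5.84, 8.48 and 11.50, against 11.79, 12.65 and 11.87 (-3.50, SE 1.11). Rat 9 was close to the day 15 livers in all 3 genes, and rats 7 and 8 were far below. Without rat 9, 5 members were called and the median was -1.48; without each other liver no member was called.

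Igf1, the main hormone made by liver under growth hormone, had 12.63, 12.91 and 13.05, against 13.05, 13.38 and 13.09 (-0.31, SE 0.14, adjusted p = 0.344), and the receptor gene Ghr had 8.56, 9.85 and 11.15, against 10.94, 11.84 and 10.77 (-1.33, SE 0.55). On the female-biased list 1 of 9 genes rose, against 0.324% of all genes. The list median was 0.47, with 7 members above 0 and 2 below, from -0.24 in Cyp2c12 to 1.39 in Cyp17a1. In 3 members every day 25 liver lay above every day 15 liver, against 7.39% of all genes. Cux2, a homeobox factor that represses male-biased genes in female mouse liver, had 5.70, 5.76 and 5.96, against 4.69, 4.60 and 4.83, and rose by 1.10 (SE 0.10, adjusted p = 0.00863), with day 10 livers at 4.41 to 4.44. Its levels were under the array medians at every day, but its other probe set rose too, by 0.84 (SE 0.09). Cyp2c12, the female-type P450, had 11.39, 11.27 and 9.91, against 11.89, 8.90 and 12.50 (-0.24, SE 0.95), so rats 4 and 6 already carried levels as high as rats 7 and 8.

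**Figure D4:**
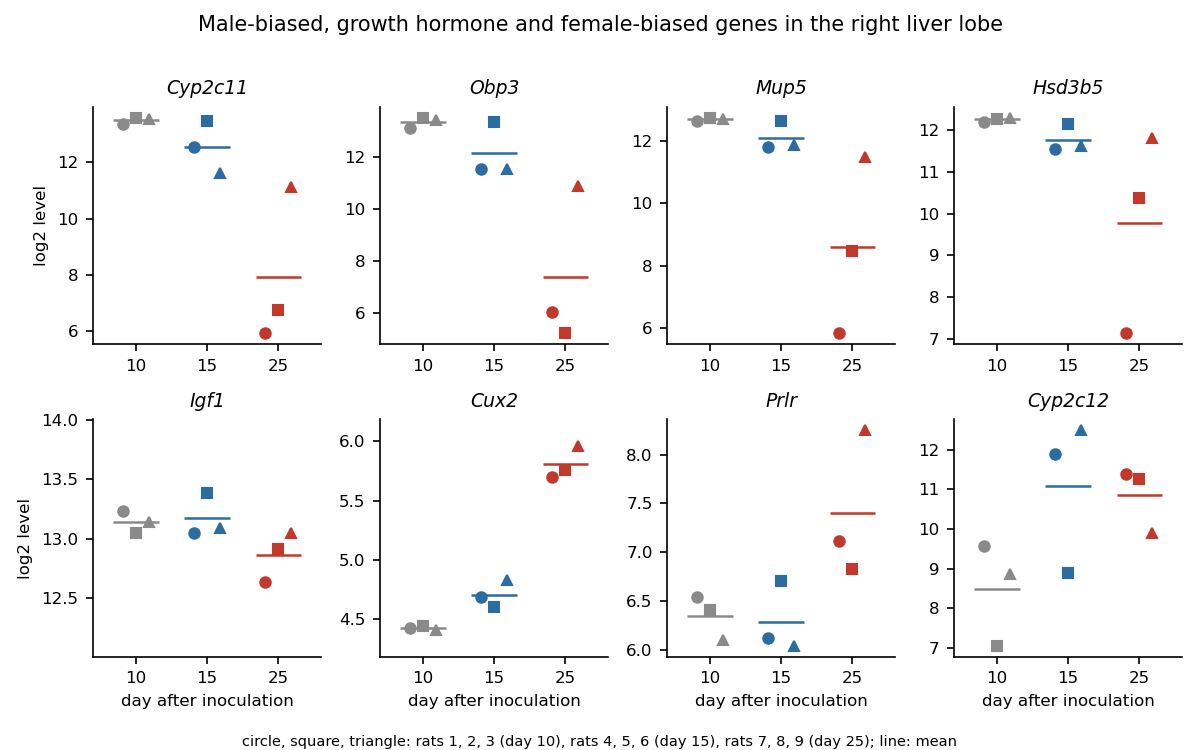
Log2 levels of male-biased (Cyp2c11, Obp3, Mup5, Hsd3b5), growth hormone (Igf1) and female-biased (Cux2, Prlr, Cyp2c12) genes (vertical axes, each on its own scale) in the 3 livers of days 10, 15 and 25; each point is 1 rat and the line is the mean. In the male-biased panels the triangle of day 25 (rat 9, Cyp2c11 at 11.13) lies near the day 15 livers and the circle and square (rats 7 and 8, 5.93 and 6.76) lie below them.

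Of 32 cytochrome P450 genes of families 1 to 4, 1 rose and 1 fell, against 0.844% of all genes called in either direction (median -0.33). Cyp3a18, a testosterone and drug hydroxylase, had 9.64, 9.96 and 10.31, against 11.95, 11.81 and 11.74, and fell by 1.86 (SE 0.18, adjusted p = 0.00863). Cyp4b1, an enzyme better known from lung, had 8.91, 9.19 and 7.97, against 6.54, 6.71 and 6.58, and rose by 2.08 (SE 0.27, adjusted p = 0.0174). Cyp2e1, the ethanol-oxidising P450, had 12.75, 11.64 and 12.24, against 11.78, 13.30 and 12.22 (-0.23, SE 0.39). Among 27 conjugation genes 1 fell, against 0.52% of all genes (median -0.24), the glutathione transferase Gsta1, with 11.14, 11.18 and 11.58 against 12.23, 12.28 and 12.15 (fell by 0.92, SE 0.13, adjusted p = 0.0224). Aox1, aldehyde oxidase, on no list, fell by 1.94 (SE 0.30), with 7.95, 8.68 and 9.33 against 10.33, 10.68 and 10.76.

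Of 24 bile acid genes 2 fell and none rose, against 0.52% of all genes called lower (median -0.21). Slco1a4, an uptake transporter for bile acids and drugs at the sinusoid, had 7.60, 8.08 and 8.68, against 10.30, 11.13 and 10.49, and fell by 2.52 (SE 0.33, adjusted p = 0.0178); its other probe set fell by 3.78 (SE 0.45). Akr1d1, the reductase that gives bile acids their bent ring, had 9.28, 9.98 and 9.98, against 11.13, 10.87 and 11.08, and fell by 1.28 (SE 0.20, adjusted p = 0.032). Its other probe set, brighter in the livers, differed by -0.73 and did not pass the test (limma, SE 0.28, adjusted p = 0.296 over all probe sets). Without rat 4, 6 or 8 neither Slco1a4 nor Akr1d1 was called. Baat, which joins bile acids to glycine or taurine, had 11.17, 12.31 and 12.18, against 12.88, 12.86 and 12.79 (-0.95, SE 0.25, adjusted p = 0.131). Cyp8b1, the 12-alpha-hydroxylase that makes cholic acid, had 11.02, 10.08 and 10.84, against 6.05, 10.94 and 7.72 (2.41, SE 0.99, adjusted p = 0.31); rats 4 and 6 were low, and rat 5 was at the level of the day 10 livers (10.04 to 10.63).

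Of 14 hepatocyte markers 1 fell, Otc, and among 37 urea cycle and amino acid genes it was again the 1 gene called, against 0.52% of all genes called lower (medians 0.03 and 0.05). Otc, ornithine transcarbamylase of the urea cycle, had 9.44, 10.27 and 10.36, against 11.37, 11.84 and 11.33, and fell by 1.49 (SE 0.24, adjusted p = 0.0359). Its neighbours in the cycle, Cps1 (13.66, 13.20 and 12.85, against 12.78, 13.20 and 12.97) and Ass1 (13.96, 13.14 and 12.70, against 13.20, 13.45 and 13.44), overlapped. Of 11 pericentral genes 1 rose, against 0.324% of all genes called higher. It was Slc1a2, a glutamate transporter, with 7.87, 6.86 and 6.43, against 5.11, 5.33 and 5.38. Slc1a2 rose by 1.78 (SE 0.31, adjusted p = 0.0432), while a second, dim probe set differed by 0.01. None of 12 periportal genes was called (median 0.00). Npas2, a partner of the clock protein Bmal1, was the 1 of 17 clock genes called, against 0.52% of all genes called lower. It had 6.41, 5.71 and 6.81, against 8.43, 7.98 and 8.17, and fell by 1.88 (SE 0.25, adjusted p = 0.0179). Of 14 Nrf2 target genes Me1 alone was called, again against 0.52% of all genes called lower. Nqo1, the quinone reductase, had 9.99, 9.78 and 10.15, against 8.82, 9.23 and 9.47 (0.80, SE 0.20, adjusted p = 0.107).

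Several of the largest changes were in genes of other kinds. Ces1d, a carboxylesterase that hydrolyses lipids and drugs, had 4.35, 5.29 and 7.92 in rats 7, 8 and 9, against 9.81, 11.12 and 9.96 in rats 4, 5 and 6, and fell by 4.44 (SE 0.80, adjusted p = 0.046). Poteml2 fell by 2.92 (SE 0.34, adjusted p = 0.0149) and Mettl7b, a thiol methyltransferase, fell by 2.19 (SE 0.26, adjusted p = 0.0149). Hes6, a bHLH factor, fell by 2.14 (SE 0.22, adjusted p = 0.0127) and Hykk, hydroxylysine kinase, fell by 1.98 (SE 0.30, adjusted p = 0.0301). The day 25 levels of Poteml2 (4.43, 5.11 and 5.74) and Hykk (4.33, 4.92 and 4.97) were under the array medians. So were those of Ces1d in rats 7 and 8. Among the rises, Serpinb1a, an inhibitor of neutrophil proteases, had 10.58, 10.28 and 9.62, against 8.17, 6.84 and 8.37 (2.36, SE 0.40, adjusted p = 0.0391). Olr1, the endothelial and macrophage receptor for oxidised lipoprotein, had 6.65, 7.08 and 6.96, against 5.36, 4.50 and 4.95 (1.96, SE 0.23, adjusted p = 0.0149). Ccl21, the chemokine of lymphatic vessels and lymphoid tissue, had 9.98, 9.37 and 9.39, against 7.73, 6.76 and 8.23 (2.01, SE 0.35, adjusted p = 0.0424), a call lost whichever liver was left out.

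Tnfrsf21, death receptor 6, rose by 2.28 (SE 0.37), Rab30, a Golgi GTPase, by 2.00 (SE 0.24), and Rgs4, a brake on G protein signals, by 1.94 (SE 0.35). Lepr, the leptin receptor, had 9.81, 8.40 and 8.51, against 6.95, 7.39 and 6.73 (1.88, SE 0.34, adjusted p = 0.0474); of its 6 further probe sets 3 differed by 1.18 to 1.90 and 3, all dim, by 0.06 to 0.12. By the rule that chose them for naming, the 2 days did not overlap in any of these genes. Runx1, a transcription factor of blood cells, picked after its values were seen, rose by 1.10 (SE 0.17, adjusted p = 0.0321). Its other, dim probe set differed by 0.09 (SE 0.11). Sbno2, a corepressor induced by interleukin-10 in mouse macrophages, also picked from its values, rose by 1.07 (SE 0.17, adjusted p = 0.0321).

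The timing was read from the day 10 livers, which share the spread estimate with the main comparison and therefore add no independent support. Between day 15 and day 10 no gene was called (0%; 1253 at an unadjusted p under 0.05), and between day 25 and day 10 863 genes were called (6.07%), 516 higher (3.63%) and 347 lower (2.44%). The difference of day 25 from day 10 was 5.26 for A2m, 3.67 for Il1r2, -4.68 for Pnpla3, -2.92 for Acly and 1.38 for Cux2, and that of day 15 from day 10 was 1.10, 0.67, 0.00, -0.28 and 0.29 for the same genes. Not every gene called against day 15 was far from its day 10 level. Tm7sf2, Scap and Smim26, picked from their values, differed from day 10 by -0.17, -0.14 and 0.08 at day 25. At day 15 they differed from it by 0.96, 0.37 and -0.42.

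The tumours of the same rats were compared over the same days to ask whether a change was larger in the liver lobe than in the tumour. No gene was called between day 25 and day 15 in the tumours (0%; 1532 at an unadjusted p under 0.05). The change in liver minus the change in tumour passed the test for no gene either (0%; limma, lowest adjusted p 0.126, with 1491 genes at an unadjusted p under 0.05), and with the rat as a block it was again 0 genes (lowest adjusted p 0.0548). Leaving out 1 rat at a time gave 0 without rat 4, 6 without rat 5, 2 without rat 6, 7 without rat 7, 0 without rat 8 and 28 without rat 9. No change is therefore called particular to the liver lobe. A2m changed by 4.16 in the liver and by 0.60 in the tumour (difference 3.57, SE 0.87, adjusted p = 0.207), and Acly by -2.64 in the liver and -0.53 in the tumour (difference -2.11, SE 0.56, adjusted p = 0.245). Cyp2c11 differed by -4.59 in the liver and -3.94 in the tumours; the 14 hepatocyte genes averaged 7.96, 10.57 and 10.72 in the day 25 tumours of rats 7, 8 and 9, against 10.19, 11.77 and 9.95 in those of rats 4, 5 and 6. The median difference of the changes was -1.15 for the fatty acid list and -1.15 for the cholesterol list, against 0.00 over all genes, with no member called.

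**Figure D5:**
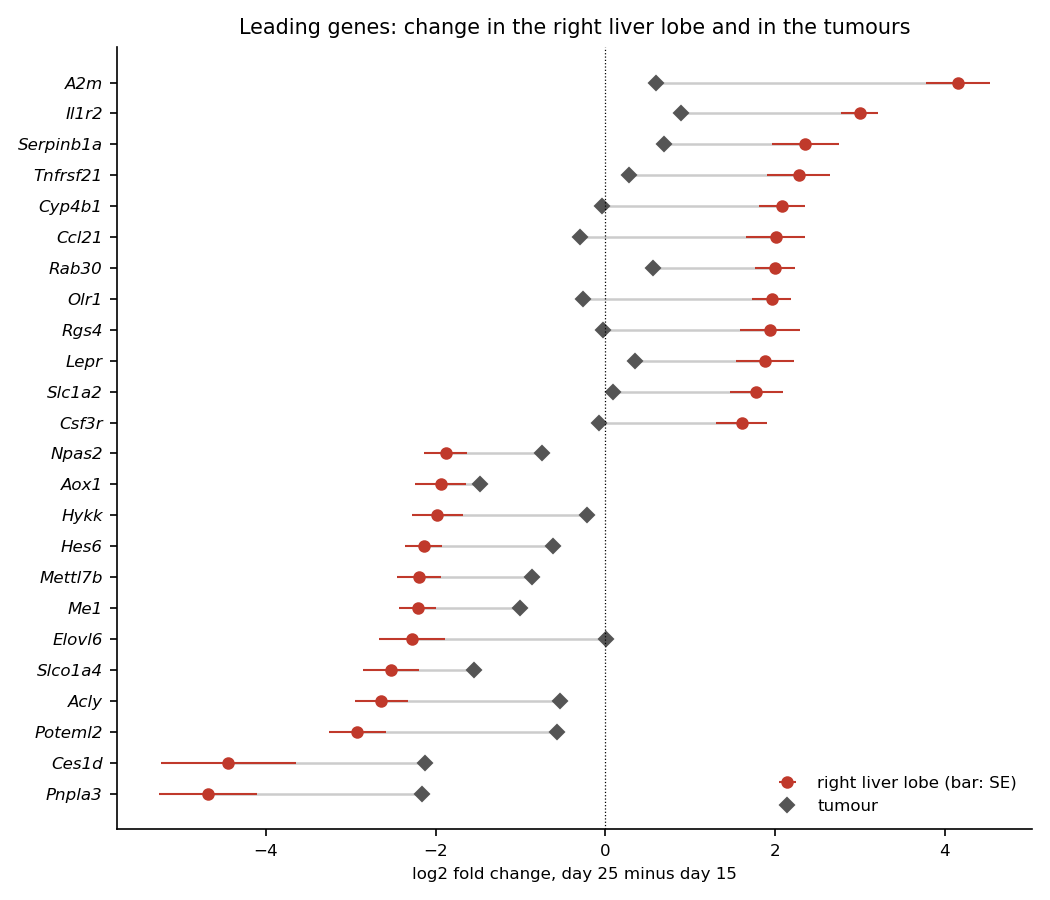
Log2 fold change from day 15 to day 25 (horizontal axis) of the 24 genes chosen for the largest called changes in liver, in the right liver lobe (red circles, bars are the SE) and in the tumours (grey diamonds), 3 rats a day. The liver value lies farther from 0 than the tumour value in every row, as for A2m with 4.16 and 0.60. Choosing the rows by their liver change in these same arrays favours this pattern, so it does not show a larger change in liver. No difference between the tissues passed the test.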

How the data were processed

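The deposited values are log2 levels of the probe sets of Affymetrix rat arrays, and the submitters' processing notes name RMA, with no version. RMA aligns the distributions of all arrays, so a shift of most transcripts would be partly removed. Of 31099 probe sets, 20832 carry a single symbol; where several of these shared a gene, the one brightest on average across all 21 arrays stood for it, which left 14218 genes. Symbols were updated through the RefSeq table of GRCr8.

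The 9 liver arrays, without the tumours, whose liver content varies, were fitted as 3 day means with limma 3.58.1 in R 4.3.3 (lmFit and eBayes, no trend), adjusted by Benjamini-Hochberg over all genes, and called at an adjusted p under 0.05. The liver change minus the tumour change was the interaction of day and tissue in the 18 liver and tumour arrays. The fit was tested on simulated data. The replicates are different rats, so p-values measure the spread between rats, pooled over the 3 days. The day 10 livers varied least, with a median standard deviation per gene of 0.123, against 0.145 at day 15 and 0.177 at day 25. The pooled spread is therefore not that of the compared rats alone, and 3 arrays a group limit the precision. The labels give no batch or scan date.

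Members and the 40 gene lists (675 of 768 entries measured) were chosen with earlier results of these data known. Named were up to 12 called genes in each direction with the largest change and no overlap between the days, without provisional names, and from each list up to 3 called members in each direction and the uncalled member with the highest mean. A2m, Alb, Cyp2c11, Igf1, Hamp, Krt19 and Erbb2 were always included, and further list members, and genes said to be picked from their values, were named after these were seen. Lists are given by counts and medians, with no test. Alternatives were other samples for the spread, scaling, filtering, array weights, blocks and leaving out each rat. The liver titles name by sample number the samples they pair with, and the tumour titles give a replicate number only. The rat numbers used here were assigned from these. Deviations of liver and tumour given the same rat number correlated at 0.04 to 0.30.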

Additional observations from a re-analysis of the deposited data

How the results depend on the processing

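The comparison called 120 genes, 46 higher and 74 lower. The number was 2 (1 higher, 1 lower) with the spread from the 6 livers of days 25 and 15 alone, 313 (117 and 196) with the spread from all 21 arrays, and 489 (212 and 277) with array weights. Of the 120 genes, 84 were shared with the call from 21 arrays and 120 with that from array weights. It was 114 (47 and 67) after quantile normalization, 125 (44 and 81) after median centring, 113 (40 and 73) with dim genes left out, 95 (30 and 65) with the mean over all probe sets of a gene, and 102 (40 and 62) with an intensity trend. With the replicate number as a block it was 42 (11 and 31), 34 of them shared; those numbers belong to different rats, whose deviations correlated at -0.12, -0.23 and -0.26, and do not pair the livers. Leaving out 1 liver in turn gave 11 to 200 genes, 6 to 83 higher and 3 to 117 lower. For the liver change minus the tumour change the count was 0, 0 with the rat as a replicate block, and 0 to 28 with 1 rat left out. The cause of these shifts was not tested.

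The called genes named in addition to the rule were not followed through the alternatives. With 1 liver left out, array weights or another estimate of the spread, the 38 called genes named by the rule could not change direction. The reason is that their groups did not overlap. Under the other alternatives none of the 38 changed direction. Uncalled genes near 0 did: Alb (0.00), Krt19 (-0.03) and Atp5f1b (-0.04) after quantile normalization, Krt19 (-0.01) and Atp5f1b (-0.01) after median centring, and Hamp (-0.18), Krt19 (-0.28), Cebpb (-0.12), Cyp2c6v1 (0.00) and Cel (-0.02) with array weights. With 1 liver left out, values crossed 0 for Krt19 (-0.78 to 0.62), Epcam (-0.92 to 0.36), Erbb2 (-0.17 to 0.18), Cebpb (-0.24 to 0.33), Pck1 (-0.05 to 0.23), Cd22 (-0.01 to 0.07), Atp5f1b (-0.07 to 0.10), Cyp2c6v1 (-0.02 to 0.05), Cyp2e1 (-0.56 to 0.21), Cel (-0.02 to 0.09), Ldha (-0.07 to 0.43), Hamp (-0.08 to 0.99), Nfil3 (-0.09 to 0.76), Hspa5 (-0.39 to 0.11), Cidec (-0.13 to 0.41) and Ass1 (-0.44 to 0.19).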

Other observations

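Of the lists not described so far, none held a called gene. Of 16 hypoxia genes 15 had differences above 0, against 6827 of all 14218 genes. Their median was 0.26, with the highest in Egln3, an oxygen-sensing hydroxylase (1.31). The hypoxia list averaged 8.22 in rat 7 but 7.49 and 7.37 in rats 8 and 9, against 7.36, 7.37 and 7.35 in rats 4, 5 and 6. The 29 cell cycle genes had a median of -0.33 and ran from -0.91 in Ccna2, cyclin A2, to 0.27 in Pcna. They averaged 5.82, 7.26 and 6.88 in rats 7, 8 and 9, against 7.57, 6.26 and 6.92 in rats 4, 5 and 6. The median was -0.06 for 17 complement genes, 0.01 for 17 coagulation genes, 0.08 for 16 iron and haem genes, -0.09 for 18 respiratory chain genes, -0.06 for 23 genes of the unfolded protein and integrated stress response and 0.09 for 21 immediate early and p53 target genes. The 6 mesothelial genes had a median of 0.05.

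Livers of the same day differed in single genes by large amounts, and those below were picked after their values were seen and are given as levels only. At day 15, Stac3, an adaptor protein of muscle calcium channels, was at 11.02 in rat 5 and at 5.97 and 5.58 in rats 4 and 6; the day 10 livers had 9.20 to 10.52 and the day 25 livers 5.36 to 5.52. Tsx had 8.78 and 9.09 in rats 4 and 6, against 4.50 in rat 5, and lay between 4.25 and 5.45 at day 25. Gucy2c, the guanylin receptor of the gut, had 9.65, 8.74 and 6.66 at day 25, against 7.17, 4.80 and 7.17 at day 15.

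Rat 7 carried values of its own among the day 25 livers. Fst, the activin antagonist follistatin, was at 11.14, with 7.68 and 7.88 in rats 8 and 9, against 4.79 to 6.51 at day 15. Wnt4 was at 9.76, with 6.63 and 4.85, against 4.40 to 5.51. Sned1 was at 11.33, with 7.28 and 6.50, against 6.47 to 7.01. Sult1e1, the estrogen sulfotransferase, was at 4.07, with 10.09 and 12.45, against 12.45 to 13.33, and Serpina6, corticosteroid-binding globulin, was at 5.15, with 10.40 and 12.21, against 11.47 to 12.79. Irs2, an adaptor of the insulin receptor, was at 10.55, with 8.56 and 8.30, against 7.61 to 8.29. Hmox1, haem oxygenase, was at 11.87, with 10.17 and 10.44, against 8.63 to 9.95. In rat 8, Acot1, an acyl-CoA thioesterase, was at 7.82, with 3.86 and 3.68 in rats 7 and 9, against 3.71 to 3.78.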
